A study of Mus musculus with 4 samples.

Results

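Cd5l and 9 genes of fatty acid synthesis, binding and oxidation were followed in mouse T helper 17 (Th17) cells given SAA1, or serum amyloid A1, a protein that liver and gut release in inflammation. The 10 genes were taken by symbol from a table of 23356 gene rows, and all 10 were found and had been tested by the authors. T cells of C57BL/6 mice aged 6 to 8 weeks, with no engineered allele in the labels, were kept in Th17 culture for 48 h. The culture of 2 libraries held recombinant mouse SAA1 at a labelled dose of 2 ng/ml, and that of 2 others held vehicle, which the labels also give as no treatment. Bulk RNA of cultured cells was sequenced, so a change in the make-up of the culture and a change per cell cannot be told apart. The labels do not say whether the libraries of a group came from separate mice, so the p-values may rest on technical spread alone. The authors' table gives 1 value per group in FPKM, a unit that corrects fragment numbers for transcript length and for library size, so levels can be compared between genes but no spread between libraries can be given and sequencing depth is unknown.

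Fatty acids are built in the cytosol from citrate. ATP citrate lyase splits citrate to acetyl-CoA, acetyl-CoA carboxylase turns this into malonyl-CoA, and fatty acid synthase joins the units into palmitate, which elongases lengthen and stearoyl-CoA desaturases convert to monounsaturated chains. Oxidation runs the other way, in mitochondria, after carnitine palmitoyltransferase has loaded the chain for import. Th17 cells depend on synthesis of new fatty acids, and Cd5l, a secreted protein with scavenger receptor cysteine-rich domains that macrophages also make, is known as a regulator that shifts the lipids of mouse Th17 cells and marks their less inflammatory form.

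Cd5l rose with SAA1, and none of the 9 fatty acid genes passed the test. Cd5l stood at 255 FPKM in SAA1 cells and 133 FPKM in vehicle cells, a 1.92-fold difference. Its log2 ratio of SAA1 over vehicle was 0.94 ± 0.20, where the error is the SE that the deposited test statistic implies, with an adjusted p of 0.00191 by Cuffdiff in the authors' deposited table, the smallest value it holds. That smallest value was shared by 300 tested genes, Cd5l among them, so it does not rank Cd5l above the others. A gene is called here at an adjusted p under 0.05. By that rule 1 of the 10 genes was called, against 6.52% of the 11481 genes tested, and it was higher with SAA1, as were 3.97% of all genes tested; none of the 10 was called lower, against 2.55%. Cd5l and Scd1, 2 of the 10 genes, had an unadjusted p under 0.05 in that table, against 15.8% of all genes. The median log2 ratio, taken here on FPKM plus 0.1, was -0.04 over the 10 genes and -0.02 over all genes that reached 1 FPKM in a group.

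**Figure D1:**
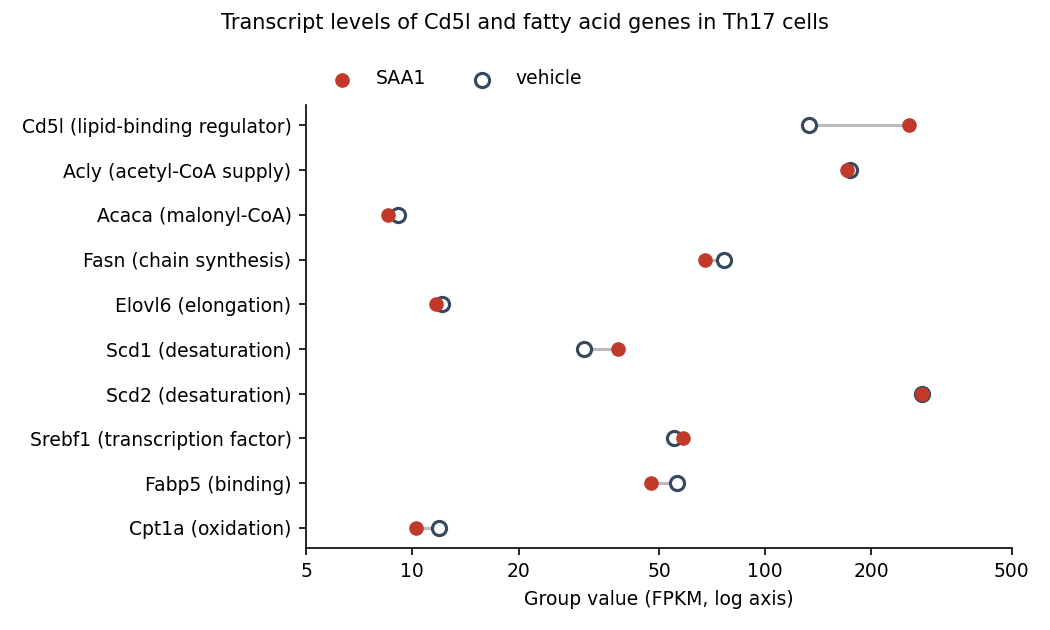
Group value of each of the 10 genes in FPKM on a log axis, with filled points for SAA1 and open points for vehicle, 1 value per group from 2 libraries. Cd5l lies at 255 FPKM with SAA1 and 133 FPKM with vehicle, while the points of Acly, Elovl6, Srebf1 and Scd2 nearly coincide.

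Cd5l was among the more abundant transcripts of these cells in both groups. It ranked 292 of 23356 rows by FPKM in SAA1 cells and 713 in vehicle cells. Among the 456 genes called higher, its log2 ratio ranked 183, and of the genes above it all but Il17f and Ctla4 had a lower level in vehicle cells. Of the 982 genes with at least 100 FPKM in vehicle cells, 7 were called higher, against 3.97% of all genes tested. By log2 ratio Cd5l ranked 3 among the 7, after Il17f, which encodes the cytokine IL-17F, and Ctla4, which encodes an inhibitory receptor. The bound of 100 FPKM was not part of the design, and this rank depends on it. Il21, called higher with a log2 ratio of 1.08, lay just under the bound, at 92.8 FPKM in vehicle cells. Il17a and Ccl20, both called higher, lay further under it, at 56.0 and 12.7 FPKM in vehicle cells. In SAA1 cells they were at 568 and 209 FPKM (log2 ratios 3.34 and 4.05). The 95% interval of Cd5l's log2 ratio, taken as 1.96 SE on either side, ran from 0.55 to 1.34, or from 1.46-fold to 2.53-fold. The call held under each of the alternative thresholds and adjustments tried. Most kept Cuffdiff's deposited adjusted p of 0.00191, and the smallest, 0.000464, came from reading the test statistic on a normal curve. Whether the ratio of Cd5l differs from those of the other 9 genes was not tested.

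**Figure D2:**
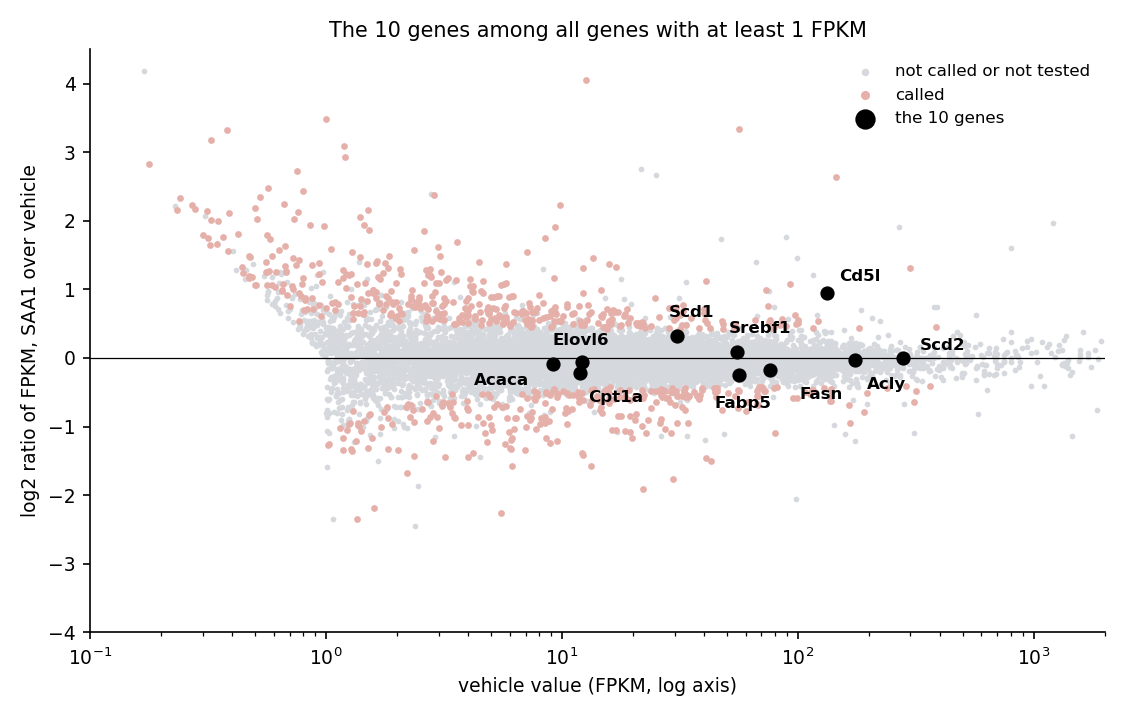
Log2 ratio of FPKM, SAA1 over vehicle, against the vehicle FPKM on a log axis, for genes that reached 1 FPKM in a group (10557 points; 55 lie outside the axes and 89 have a 0 in a group). Cd5l lies at a log2 ratio of 0.94, and the 9 fatty acid genes lie between -0.25 and 0.32.

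Cd5l is on chromosome 3 of the mm10 assembly, from 87357881 to 87371074, on the forward strand, a protein-coding gene with 6 exons in the GENCODE annotation. No other row of the table shares its locus. Within 100 kb the table holds 3 other genes, all of the Fc receptor-like family. Fcrl1 was at 28.7 FPKM in SAA1 cells and 29.0 FPKM in vehicle cells, with an adjusted p of 0.986 by Cuffdiff in the authors' deposited table. Fcrl5 and Fcrls were under 0.1 FPKM in both groups. None of the 3 was called.

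The 10 genes lie on 3 chromosomes, with Fasn, Acaca, Acly and Srebf1 on chromosome 11, Scd1, Scd2 and Cpt1a on chromosome 19, and Cd5l, Elovl6 and Fabp5 on chromosome 3. All are protein-coding. On mm10 the table places Fasn at 120805958 to 120824547, Acaca at 84195438 to 84401651 and Acly at 100476352 to 100528000, while Srebf1 runs from 60199089 to 60222581 in GENCODE. Scd1 lies at 44394450 to 44407709, Scd2 at 44293676 to 44306862 and Cpt1a at 3323301 to 3385733. Elovl6 lies at 129532386 to 129638493 and Fabp5 at 10012585 to 10016610, and these spans include introns. RefSeq promoter windows on GRCm38.p6, from 250 bases before to 50 bases after a gene's start, were matched for 7 of the 10 genes in 9 windows. The Acaca window lies inside the gene as GENCODE gives it, from 84129672, so it may not hold that gene's main promoter. The 250 bases before the start are shown for Cd5l, the member that was called, and for Acly and Fasn, the most abundant enzymes of the synthetic route with a window, so that the gene that moved can be read beside those that were not called. Each runs 5′ to 3′ on the gene's strand, and capitals mark matches on either strand to CCAAT (the CCAAT box), GGGCGG (the GC box), TCACNCCAC (a sterol regulatory element), AGGTCA (a nuclear receptor half-site) or TTCNNNGAA (a STAT site).
Cd5l, chr3:87357631-87357880, forward strand: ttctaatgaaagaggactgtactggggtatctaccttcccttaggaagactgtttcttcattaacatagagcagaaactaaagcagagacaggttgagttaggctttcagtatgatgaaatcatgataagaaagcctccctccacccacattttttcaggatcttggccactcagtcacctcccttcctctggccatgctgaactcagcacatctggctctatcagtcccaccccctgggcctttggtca
Acly, chr11:100528001-100528250, reverse strand: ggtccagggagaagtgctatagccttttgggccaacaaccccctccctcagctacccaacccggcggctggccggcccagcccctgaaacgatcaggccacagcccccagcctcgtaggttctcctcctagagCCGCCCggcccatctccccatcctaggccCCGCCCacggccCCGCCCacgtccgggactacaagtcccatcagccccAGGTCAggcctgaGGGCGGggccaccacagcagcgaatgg
Fasn, chr11:120824548-120824797, reverse strand: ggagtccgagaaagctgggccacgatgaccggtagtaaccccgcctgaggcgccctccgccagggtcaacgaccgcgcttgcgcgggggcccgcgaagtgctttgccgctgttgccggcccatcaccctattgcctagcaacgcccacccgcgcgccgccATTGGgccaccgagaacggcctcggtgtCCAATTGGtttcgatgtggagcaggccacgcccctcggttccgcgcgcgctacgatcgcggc

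The Cd5l window held none of those 5 motifs, and neither did that of Acaca, which was not called. Before the start the Cd5l window is 46.8% G and C, against 68.8% for Acly, 69.2% for Fasn and 39.2% for Acaca. The median over all windows was 52.4%, so the value of Cd5l lies nearer to it than those of Acly and Fasn. In Fasn, CCAAT was found 3 times, with overlapping matches on opposite strands at -62 to -58 and -59 to -55 from the start, and the E-box CANNTG overlaps both. In Acly, GGGCGG was found 4 times before the start, and AGGTCA once at -40 to -35. CCAAT was present in 5 of the 9 windows, of Acly, Cpt1a, Fasn and Srebf1, and in 37.4% of 32851 windows of that length. GGGCGG was present in 4 of the 9 windows and in 35.7% of all, AGGTCA in 3 of 9 and in 16.3% of all, and CANNTG in 7 of 9 and in 72.3% of all. TCACNCCAC and TTCNNNGAA were in none of the 9, against 1.24% and 8.30% of all windows. These are matches of letters in a short window and say nothing of which factors act there.

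Transcripts of the enzymes that make palmitate were at similar values in both groups. Acly, the ATP citrate lyase gene, was at 171 FPKM in SAA1 cells and 174 FPKM in vehicle cells, with a log2 ratio of -0.03 ± 0.20. Acaca, which encodes acetyl-CoA carboxylase 1, was at 8.54 FPKM in SAA1 cells and 9.12 FPKM in vehicle cells (log2 ratio -0.09 ± 0.20). Fasn, the fatty acid synthase gene, was at 67.6 FPKM in SAA1 cells and 76.3 FPKM in vehicle cells (log2 ratio -0.18 ± 0.20). All 3 values were lower with SAA1 by less than their SE. In the authors' deposited table Cuffdiff gave an adjusted p of 0.975 for Acly, 0.882 for Acaca and 0.656 for Fasn. The level of Acaca was the lowest of the 10 genes in each group, and its relative Acacb, which encodes the carboxylase of the mitochondrial surface, was at 0.188 FPKM in SAA1 cells and 0.209 FPKM in vehicle cells and was not tested.

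The genes that lengthen the chain came next. Elovl6, the elongase that takes palmitate to stearate, was at 11.7 FPKM in SAA1 cells and 12.2 FPKM in vehicle cells (log2 ratio -0.05 ± 0.21), with an adjusted p of 0.956 by Cuffdiff in the authors' deposited table. Of the 7 Elovl genes 3 reached 1 FPKM, and the other two were more abundant than Elovl6. Elovl5, which lengthens polyunsaturated chains, was at 78.4 FPKM in SAA1 cells and 73.7 FPKM in vehicle cells. Elovl1, which makes very long saturated chains and whose locus another gene row overlaps, was at 49.8 FPKM in SAA1 cells and 52.0 FPKM in vehicle cells. Neither of them was called.

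Scd1 and Scd2 encode the stearoyl-CoA desaturases that make oleate and palmitoleate. Scd1 was at 38.4 FPKM in SAA1 cells and 30.7 FPKM in vehicle cells, a log2 ratio of 0.32 ± 0.20, the largest positive value among the 9 fatty acid genes. It was not called, with an unadjusted p of 0.0227 and an adjusted p of 0.192 by Cuffdiff in the authors' deposited table. Scd2 was the most abundant of the 10 genes, at 278 FPKM in SAA1 cells and 279 FPKM in vehicle cells (log2 ratio -0.00107 ± 0.21, adjusted p 0.998 by Cuffdiff in the authors' deposited table). Scd2 thus exceeded Scd1 by 7.26 times in SAA1 cells and by 9.06 times in vehicle cells on the FPKM scale, and the difference between these ratios was not tested. The 4 Scd genes stand side by side on chromosome 19, and Scd3 and Scd4 were under 0.1 FPKM in both groups. Reads of such close copies could be assigned to either, and the locus of Scd2 also holds a microRNA gene listed at 0.

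Srebf1 encodes SREBP-1, the transcription factor that drives the genes of fatty acid synthesis. It was at 58.5 FPKM in SAA1 cells and 55.2 FPKM in vehicle cells (log2 ratio 0.08 ± 0.21, adjusted p 0.911 by Cuffdiff in the authors' deposited table). The locus given for it spans that of Rai1 as well, and Rai1 was at 4.93 FPKM in SAA1 cells and 5.03 FPKM in vehicle cells. The value sums over the transcripts of the gene, so the SREBP-1a and SREBP-1c forms are not separated.

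Fabp5, which encodes the epidermal fatty acid binding protein that carries fatty acids in the cytosol, was at 47.4 FPKM in SAA1 cells and 56.3 FPKM in vehicle cells. Its log2 ratio of -0.25 ± 0.22 was the most negative of the 10 genes, with an adjusted p of 0.450 by Cuffdiff in the authors' deposited table. No other Fabp gene reached 1 FPKM. The other 8 reached at most 0.481 FPKM in SAA1 cells and 0.326 FPKM in vehicle cells, both for Fabp3, and 4 of them were listed at 0 in both groups. Cpt1a, the carnitine palmitoyltransferase that admits long chains to oxidation, was at 10.2 FPKM in SAA1 cells and 11.9 FPKM in vehicle cells. Its log2 ratio was -0.22 ± 0.21, with an adjusted p of 0.558 by Cuffdiff in the authors' deposited table. Cpt1b and Cpt1c, its relatives of muscle and brain, were at 0.726 and 0.718 FPKM in SAA1 cells and at 1.23 and 1.12 FPKM in vehicle cells, and neither was called.

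**Figure D3:**
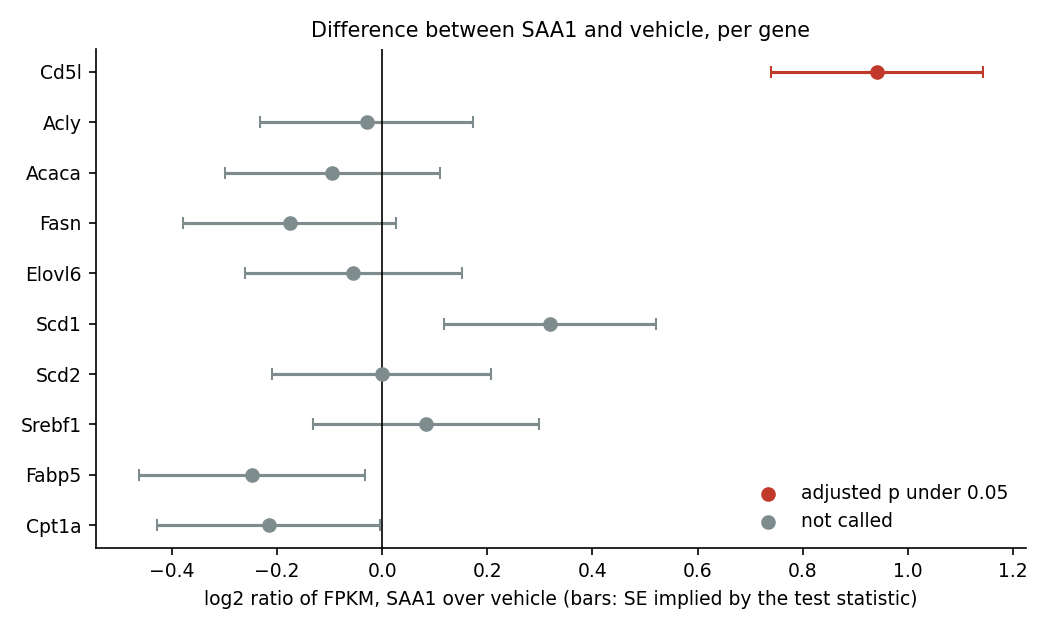
Log2 ratio of FPKM, SAA1 over vehicle, for each of the 10 genes, with bars of 1 SE as the deposited statistic implies it; red marks an adjusted p under 0.05. Cd5l lies at 0.94 ± 0.20, and the others lie from -0.25 for Fabp5 to 0.32 for Scd1.

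Over these 9 genes 7 values were lower with SAA1 and 2 higher, with Scd2 turning to the higher side when ratios were centred on the median of expressed genes, those that reached 1 FPKM in a group. Cuffdiff called 0 of the 9 in the authors' deposited table, against 6.52% of all genes tested. An unadjusted p under 0.05 was found there for 1 of the 9, against 15.8% of all genes tested. Their fold differences ran from 0.842 to 1.25, and their SE from 0.20 to 0.22 on the log2 scale. The lowest bound of their 95% intervals was 0.629-fold, for Fabp5, and the highest was 1.64-fold, for Scd1. By level the order in SAA1 cells was Scd2, Cd5l, Acly, Fasn, Srebf1, Fabp5, Scd1, Elovl6, Cpt1a and Acaca. In vehicle cells Acly stood before Cd5l and Fabp5 before Srebf1, with the other places as in SAA1 cells. Whether neighbours in these orders differ beyond their spread cannot be said from group values.

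Genes of the wider pathway, and relatives of Cd5l by protein domain, were counted in 6 lists, the 10 genes left out. Together the lists held 136 other genes, of which 91 were tested, 6 were called higher and 1 was called lower by Cuffdiff in the authors' deposited table. That share of 7.69% stands beside 6.52% over all genes tested. When p was instead read from the test statistic on a normal curve (the normal p below), 1 of the 6 higher calls remained, Mgll, beside the lower call, Acsl6.

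Among genes that store and release triglyceride, 3 of 18 tested were called higher and none lower, against 3.97% and 2.55% of all genes tested. Mgll, which encodes monoacylglycerol lipase, rose to 4.37 FPKM in SAA1 cells, against 1.64 FPKM in vehicle cells (log2 ratio 1.41 ± 0.30). Dgat1, the enzyme that adds the last fatty acid to triglyceride, rose to 25.4 FPKM in SAA1 cells, against 15.5 FPKM in vehicle cells (0.71 ± 0.22). Lipe, hormone-sensitive lipase, in a locus shared with other rows, rose to 4.88 FPKM in SAA1 cells, against 2.80 FPKM in vehicle cells (0.80 ± 0.28). Cuffdiff's adjusted p was, in the authors' deposited table, 0.00191 for Mgll and Dgat1 and 0.00471 for Lipe. With the normal p it was 0.0634 for Dgat1 and 0.123 for Lipe. The median log2 ratio of the list's 18 genes with at least 1 FPKM was 0.03, against -0.02 over all such genes.

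Genes for uptake and activation of fatty acids held a call in each direction among 13 tested. Over all genes tested the shares were 3.97% higher and 2.55% lower. Slc27a1, a fatty acid transporter of the cell membrane, rose to 1.78 FPKM in SAA1 cells, against 0.797 FPKM in vehicle cells (log2 ratio 1.16 ± 0.38). Acsl6, which joins long-chain fatty acids to coenzyme A, fell to 12.4 FPKM in SAA1 cells, against 23.2 FPKM in vehicle cells (-0.90 ± 0.22). In the authors' deposited table Cuffdiff's adjusted p was 0.00347 for Slc27a1 and 0.00191 for Acsl6, and 0.0829 for Slc27a1 with the normal p. The median over the list's 11 genes with at least 1 FPKM was 0.16.

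Of 18 other tested genes of synthesis, elongation and desaturation, 2 were called higher and none lower, against 3.97% and 2.55% of all genes tested. Acss2, which makes acetyl-CoA from acetate and whose locus another row overlaps, rose to 8.37 FPKM in SAA1 cells, against 5.80 FPKM in vehicle cells (log2 ratio 0.53 ± 0.24). Fads3, a member of the fatty acid desaturase family, rose to 1.59 FPKM in SAA1 cells, against 0.935 FPKM in vehicle cells (0.77 ± 0.36). In the authors' deposited table Cuffdiff's adjusted p was 0.0224 for Acss2 and 0.0478 for Fads3, and with the normal p it was 0.420 for Acss2 and 0.477 for Fads3. The median over the 16 genes with at least 1 FPKM was 0.04.

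**Figure D4:**
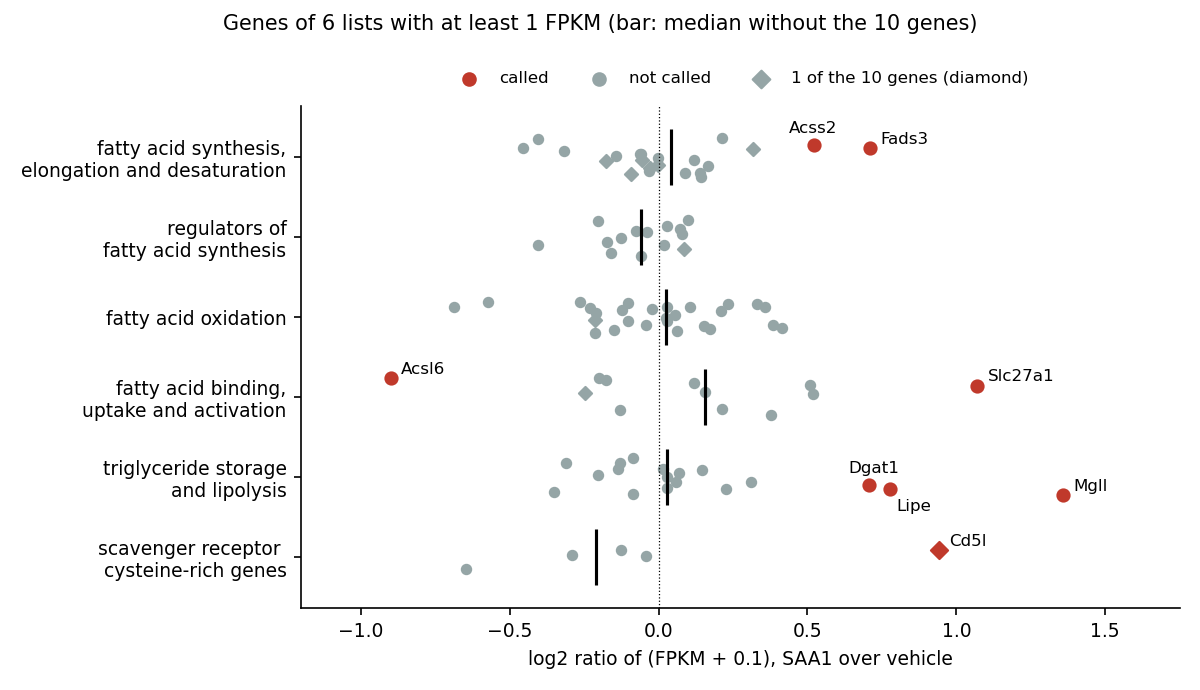
Log2 ratio of FPKM plus 0.1, SAA1 over vehicle, for the genes of 6 lists that reached 1 FPKM in a group; red marks called genes, diamonds the 10 genes and black bars the list medians without them. The called genes are Acss2, Fads3, Slc27a1, Dgat1, Lipe, Mgll and Cd5l on the higher side and Acsl6 on the lower side.

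Neither regulators of synthesis nor oxidation genes held a call, against 6.52% called over all genes tested. Of 13 other tested regulators, 0 were called by Cuffdiff in the authors' deposited table and 1 had an unadjusted p under 0.05. That gene was Insig1, which retains SREBP in the endoplasmic reticulum, at 57.4 FPKM in SAA1 cells and 76.1 FPKM in vehicle cells (adjusted p 0.0560 by Cuffdiff in the authors' deposited table). Srebf2, the factor of sterol synthesis, in a shared locus, was at 58.9 FPKM in SAA1 cells and 60.6 FPKM in vehicle cells. The regulators' median log2 ratio was -0.06.

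Of 26 other tested oxidation genes, 0 were called by Cuffdiff in the authors' deposited table. An unadjusted p under 0.05 was found for 5, against 15.8% of all genes tested, and 4 of the 5 had higher values with SAA1. Acadm, medium-chain acyl-CoA dehydrogenase, had the smallest p of them and was at 31.5 FPKM in SAA1 cells and 23.6 FPKM in vehicle cells (adjusted p 0.0760 by Cuffdiff in the authors' deposited table). Etfb, a carrier of electrons from the dehydrogenases, was at 130 FPKM in SAA1 cells and 156 FPKM in vehicle cells, and Acadvl, the very-long-chain dehydrogenase, in a shared locus, at 98.4 FPKM in SAA1 cells and 85.1 FPKM in vehicle cells. The list's median log2 ratio was 0.03.

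Relatives of Cd5l by protein domain held no call, against 6.52% called over all genes tested. Of 4 other tested genes with scavenger receptor cysteine-rich domains, 0 were called by Cuffdiff in the authors' deposited table and 1, Prss12, had an unadjusted p under 0.05, at 0.708 FPKM in SAA1 cells and 1.16 FPKM in vehicle cells with an adjusted p of 0.147. Cd5, a T cell receptor of that family, was at 406 FPKM in SAA1 cells and 443 FPKM in vehicle cells, and Cd6, which binds ALCAM, at 246 FPKM in SAA1 cells and 253 FPKM in vehicle cells. The macrophage members Cd163, Msr1 and Marco were at most 0.126 FPKM in each group.

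Because macrophages also make Cd5l, its level was set beside cell type markers. Of 19 macrophage markers found, 1 reached 1 FPKM, and their summed level was 1.86 FPKM in SAA1 cells and 2.53 FPKM in vehicle cells, beside 255 FPKM of Cd5l in SAA1 cells and 133 FPKM in vehicle cells. Cd68 was at 1.05 FPKM in SAA1 cells and 1.58 FPKM in vehicle cells, Nr1h3 at 0.219 FPKM with SAA1 and 0.184 FPKM with vehicle, and Cd14 at 0.229 FPKM with SAA1 and 0.169 FPKM with vehicle, while C1qa, C1qb, C1qc, Marco and Spic were listed at 0 in both groups. All 12 T cell markers were present, from 28.2 to 406 FPKM in SAA1 cells and from 39.1 to 443 FPKM in vehicle cells, and 1 was called higher and 1 lower. Of 10 Th17 markers 7 were called higher and 1 lower. Over all genes tested, 3.97% were called higher and 2.55% lower. Dendritic cell, B cell and adipocyte markers were all under 1 FPKM. Of 6 markers of CD8 and natural killer cells 3 reached 1 FPKM, and none of these was called. Which cells of the culture made Cd5l was not tested.

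**Figure D5:**
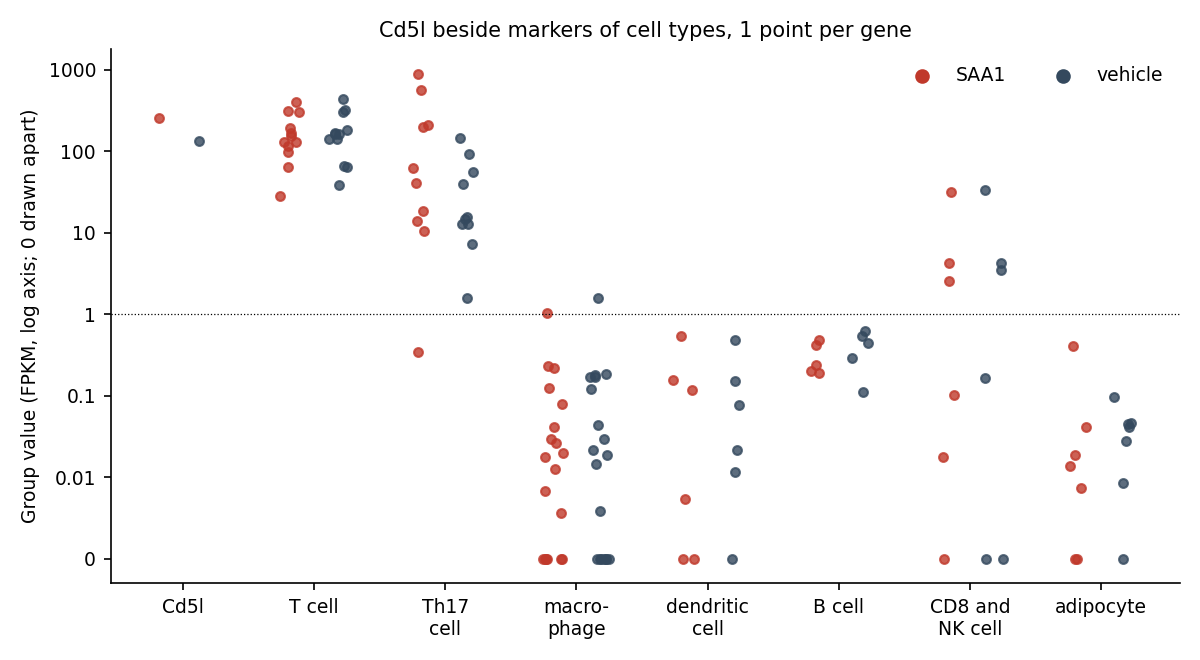
FPKM on a log axis, with 0 drawn apart at the foot, of Cd5l and of the markers of 7 cell types, 1 point per gene, with SAA1 to the left of vehicle in each pair. Macrophage markers lie at or under 1.58 FPKM in both groups, and Cd5l lies at 255 FPKM with SAA1 and 133 FPKM with vehicle.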

How the data were processed

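Total RNA of 4 libraries was sequenced after TruSeq preparation, per the labels' protocols. TopHat2 and Cuffdiff, and the builds mm9 and mm10, are named without settings in the submitters' processing notes. The authors deposited 1 FPKM value per group, and with it a score (the test statistic), a p-value and a q-value for each gene. Of 23356 rows, 11481 were tested. Of 21458 rows matched by symbol, 99.0% overlap the GRCm38 position, so coordinates are mm10, counted from 1.

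Log2 ratios were recomputed from FPKM, and the SE is that ratio over the deposited statistic. The deposited p is smaller than the two-sided normal p of the statistic in 98.5% of tested rows, so SE and p are not interchangeable. Adjusting the deposited p over tested rows by Benjamini and Hochberg gave the deposited q-value within 5.23e-07. The design foresaw a test on values per library; none are given, so Cuffdiff's deposited test was used. The adjustment step was tested on simulated data with normal p-values, which does not bear on Cuffdiff's own p.

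List medians used a pseudocount of 0.1 and a minimum of 1 FPKM in a group. Named genes were the 10 members, up to 4 called genes a list, the 2 most abundant others where fewer than 2 were called, and the 3 most abundant markers of a cell type, of which those of T, Th17, dendritic, B, CD8 and natural killer cells and adipocytes are given as ranges or counts. Gene relatives, neighbours, Il17f, Il17a, Il21, Ccl20, Ctla4 and Acadm were chosen after their values were seen. So were C1qa, C1qb, C1qc, Spic, Prss12, Cd163, Msr1 and Marco. Members and lists were chosen with earlier results of these data known. Python 3.11.15, pandas 2.3.3 and scipy 1.17.1 were used.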

Additional observations from a re-analysis of the deposited data

How the results depend on the processing

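The call of Cd5l and the absence of a call for the other 9 genes held under every setting that gave a value. Only the normal p of the statistic and the adjustment over genes with at least 1 FPKM gave new adjusted p-values. The other settings kept the deposited call or adjusted p, so their outcome for the 10 genes followed from the deposited values. For all genes, 283 were higher and 153 lower at an adjusted p under 0.01, and 155 higher and 92 lower with the normal p of the statistic, against 456 and 293. With a fold of at least 1.5 as well, 187 were lower. Of the other list genes, 1 was higher with the normal p (against 6), and 2 were lower at an adjusted p under 0.1 (against 1). Centring on the median of expressed genes turned the log2 ratio of Scd2 to 0.0195, against -0.00107 as deposited. At an adjusted p under 0.01, Acss2 and Fads3 were no longer called, and Acss2 was not with a fold of at least 1.5. Of 288 values set beside the main ones, 264 kept direction and side of the threshold, or stayed within the limits set for counts and medians. No paired analysis was possible because the table gives 1 value per group. For the same reason neither the omission of each library nor the alternatives for values or counts per library could be run. Depth is unknown, and the SE of the 10 genes ran from 0.20 to 0.22 on the log2 scale.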
